A study of Mus musculus with 34 samples.

Results

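The 10 genes described here encode the core of transforming growth factor beta (TGF-beta) signaling: the ligands Tgfb1, Tgfb2 and Tgfb3, the receptors Tgfbr1, Tgfbr2 and Tgfbr3, the receptor-activated SMAD proteins Smad2 and Smad3, the common partner Smad4 and the inhibitory Smad7. They were taken by name from 30750 genes with a row in at least 1 count table, and all 10 passed the filter on low counts in each of the 3 tables. TGF-beta ligands are secreted in a latent form that is held by binding proteins until it is released. A released ligand binds the type II receptor, which recruits and phosphorylates the type I receptor, which phosphorylates SMAD2 and SMAD3, and these enter the nucleus with SMAD4 and regulate genes. In tumors the pathway is known for restraining growth of many epithelial cells, for changes in cell state, and for dampening T cells.

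RNA was sequenced from mouse small cell lung cancer (SCLC), which arises from neuroendocrine lung cells, after exposure to bomedemstat (BOM), a drug that blocks LSD1, an enzyme that removes methyl groups from histones. For 96 h, BOM or its solvent DMSO was given to 3 SCLC lines (RP-116, G8545 and RP-48), with 1 library for each line and treatment. RP-48OVA-LLO190, a line whose label shares the RP-48 name, was kept in culture 10 d in 4 groups: DMSO (n = 3), BOM (n = 2), and each of these with interferon gamma for the last 48 h (DMSO+IFNg, n = 3, and BOM+IFNg, n = 2). The same line was grown as flank tumors in immunocompetent mice, whose own immune and stromal cells are part of the tumor RNA, and the mice received vehicle (n = 5), BOM (n = 4), a PD-1 blocking antibody (anti-PD1, n = 5), which targets a brake on T cells, or BOM+anti-PD1 (n = 4), with samples labelled 16 d. Thus the 10 d cultures and all tumors came from 1 line, and the age, sex and strain of the mice are not given in the sources used here. The labels leave unsaid whether replicate libraries at 10 d are separate cultures, and p-values there measure only the spread between these libraries, which may be technical.

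Library totals ranged over 8.71 to 9.97 M counts in the 96 h experiment. The 10 d libraries had 5.90 to 9.04 M, and tumor libraries 5.64 to 82.2 M, the second deepest having 13.2 M. Levels are given as CPM, a gene's counts per 1 M counts of its library. Neuroendocrine markers were high in every tumor (2785 to 3676 CPM over 10 genes), and in the 10 d cultures the macrophage markers Adgre1 and C1qa and the T cell markers Cd3d and Cd3g had no counts in any library, while others of these lists, such as Cd68 (4.19 to 10.7 CPM) and Cd8a (0.457 to 0.958 CPM), did. Vehicle tumors 1 and 2 stood apart from vehicle tumors 3 to 5 for several of the 10 genes, with higher values of Smad3, Tgfb2 and Tgfbr3, and vehicle tumor 1 was also the library of 82.2 M counts. The pair also had more muscle markers, at 66.1 and 131 CPM over 6 genes, against 6.56 to 8.74 CPM in vehicle tumors 3 to 5. Its T cell markers were at 17.9 and 25.9 CPM over 7 genes, against 3.99 to 10.4 CPM. Muscle markers also ran from 3.54 to 1121 CPM in BOM and 2.24 to 162 CPM in BOM+anti-PD1 tumors. In anti-PD1 tumors they ran from 4.69 to 6.16 CPM. The part of both lists in the results was not tested. The main tumor results against vehicle are given with and without this pair. The pair was noted by values of these same genes and held the highest vehicle values of Smad3, Tgfb2 and Tgfbr3. Leaving it out must raise their differences from BOM tumors, so p-values without it are descriptive only. A gene was called where the adjusted p of edgeR's quasi-likelihood test, adjusted by Benjamini-Hochberg over all genes of the table, was under 0.05.

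Sequence before the transcription start was read for the genes with the clearest changes, Tgfbr2, Smad3 and Tgfb2, to show what kind of promoter each has. RefSeq windows (build GRCm38.p6) were matched for 5 of the 10 genes, and 250 bases that end next to the annotated start are shown for these 3, 5′ to 3′ on the gene's own strand. Capitals mark the SMAD box CAGAC, the core TGGGAA of sites for the Notch pathway factor RBPJ, the E-box CACGTG and the TATA box TATAAA, where a match lies on the printed strand. The genes lie on the minus strand at chr9:116084293-116175360 (Tgfbr2), chr9:63646767-63757994 (Smad3) and chr1:186622792-186705989 (Tgfb2) in the GENCODE M21 annotation of GRCm38, where an antisense gene, Gm29491, overlaps Tgfb2. Matches were searched on both strands, and CACGTG reads the same on each.
Tgfbr2 (chr9:116175364-116175613, minus strand): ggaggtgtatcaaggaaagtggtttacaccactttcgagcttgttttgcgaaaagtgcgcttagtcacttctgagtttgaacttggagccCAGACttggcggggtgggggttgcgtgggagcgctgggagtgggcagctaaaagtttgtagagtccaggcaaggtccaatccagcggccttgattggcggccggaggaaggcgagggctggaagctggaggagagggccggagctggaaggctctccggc
Smad3 (chr9:63757995-63758244, minus strand): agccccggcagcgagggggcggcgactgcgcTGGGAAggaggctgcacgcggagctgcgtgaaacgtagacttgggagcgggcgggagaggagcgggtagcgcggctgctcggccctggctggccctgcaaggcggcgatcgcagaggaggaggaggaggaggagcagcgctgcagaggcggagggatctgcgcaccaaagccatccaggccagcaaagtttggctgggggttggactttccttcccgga
Tgfb2 (chr1:186705990-186706239, minus strand): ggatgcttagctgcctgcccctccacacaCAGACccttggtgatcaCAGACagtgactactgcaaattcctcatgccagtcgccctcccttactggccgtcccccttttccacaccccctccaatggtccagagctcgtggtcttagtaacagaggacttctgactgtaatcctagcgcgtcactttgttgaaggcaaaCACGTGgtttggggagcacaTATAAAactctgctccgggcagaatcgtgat

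The Tgfbr2 window held 1 SMAD box, 160 bases before the start, and the Tgfb2 window held 2, at 221 and 204 bases before it. The Smad3 window held none, and its RBPJ core lay 219 bases before the start. CAGAC matched in 42.2% of the 32851 promoter windows of this length and TGGGAA in 21.6%, so these matches are common. Tgfb2 alone of the 3 had a TATA box, 31 bases before the start (12.4% of all windows), and CACGTG, 51 bases before it (6.02%). CpG dinucleotides numbered 22 in the Smad3 window, 12 in that of Tgfbr2 and 8 in that of Tgfb2, with a median of 6 over all windows. These are matches of letters and do not show that a factor binds there.

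The order of the genes was compared as CPM per kilobase of gene model, which allows levels of different genes to be set side by side. In DMSO cultures at 10 d, Smad4 was highest (mean 32.9 CPM per kb), followed by Smad2 (17.2), Tgfbr1 (14.4), Smad7 (8.32) and Tgfb2 (7.94). Tgfb3 (2.30), Smad3 (1.83), Tgfbr3 (1.80) and Tgfb1 (1.31) came next, and Tgfbr2, the type II receptor, was lowest at 0.679. Smad4, Smad2 and the type I receptor gene Tgfbr1 were thus far above the type II receptor gene in untreated cells, and Smad3 was nearer to it. With BOM for 10 d, Tgfb2 became the highest of the 10 at 38.6 CPM per kb, and Tgfbr2 rose to the sixth place at 6.47. In vehicle tumors Smad4 was again highest (43.0) and Tgfbr1 second (18.9), but Tgfb1 came next at 14.8 CPM per kb.

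After 96 h, the type II receptor gene Tgfbr2 was higher with BOM than with DMSO in each of the 3 lines, but no gene of the table was called. Tgfbr2 went from 0 to 0.680 CPM in RP-116 (0 and 6 counts), from 2.91 to 13.6 CPM in RP-48 and from 1.91 to 12.2 CPM in G8545. All BOM values lay above the DMSO value of the same line, and the fitted log2 fold change was 2.52 ± 0.38 (SE, n = 3 lines, adjusted p = 0.190 by edgeR). With DESeq2 (adjusted p = 0.00356), without the filter on low counts (1.8e-05, edgeR) or without G8545 (0.00367, edgeR) the gene was called. None of the 10 was called, and 0 of 13333 genes (0%) were called in the main fit, 812 had an unadjusted p under 0.05, and DESeq2 called 59.

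Smad3, which carries the signal from the type I receptor to DNA, differed in direction between lines. It was at 3.56 CPM in DMSO and 24.1 CPM in BOM in RP-116, at 6.23 and 40.6 CPM in G8545, and at 35.9 and 17.1 CPM in RP-48. The line with the highest untreated level was thus the one with a lower value under BOM, and the fitted log2 difference was 1.40 ± 0.74 (SE, n = 3 lines, adjusted p = 0.882 by edgeR). It was 2.71 without RP-48 (adjusted p = 0.229), 0.72 without RP-116 (0.810) and 0.50 without G8545 (0.998), and the gene was called without the filter on low counts (1.39 ± 0.37, adjusted p = 0.0362, edgeR). Smad7, the inhibitory SMAD, was higher with BOM in every line, at 11.0 and 15.3 CPM in RP-116, 22.1 and 23.9 CPM in RP-48 and 34.1 and 43.3 CPM in G8545 (adjusted p = 0.908, edgeR). Tgfbr2 and Smad7 were 2 of 10 genes with the same direction in all 3 lines, and 24.3% of all genes tested had that property.

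The ligand with the largest share differed between the lines. In DMSO, Tgfb2 was at 2.07 CPM in RP-116, 34.5 CPM in RP-48 and 142 CPM in G8545, and with BOM at 1.81, 61.9 and 145 CPM. Of the summed CPM per kb of the 3 ligand genes, Tgfb3 made up 89.0% in untreated RP-116, while Tgfb2 made up 91.7% in untreated G8545. RP-48 had both, with 42.5% Tgfb2 and 38.6% Tgfb3. Tgfb3 was at 14.8 and 8.38 CPM in RP-116, at 18.3 and 25.8 CPM in RP-48 and at 4.52 and 12.1 CPM in G8545 (DMSO and BOM), so its direction also differed by line. Tgfb1 stayed at or below 13.4 CPM in all 6 libraries. Tgfbr1 (117 to 222 CPM), Smad2 (141 to 189) and Smad4 (154 to 192) were high throughout, with fitted log2 differences of -0.03 ± 0.11, -0.14 ± 0.12 and -0.18 ± 0.12 (SE, n = 3 lines). Tgfbr3, a co-receptor that presents ligand, lay between 2.71 and 13.2 CPM.

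**Figure D1:**
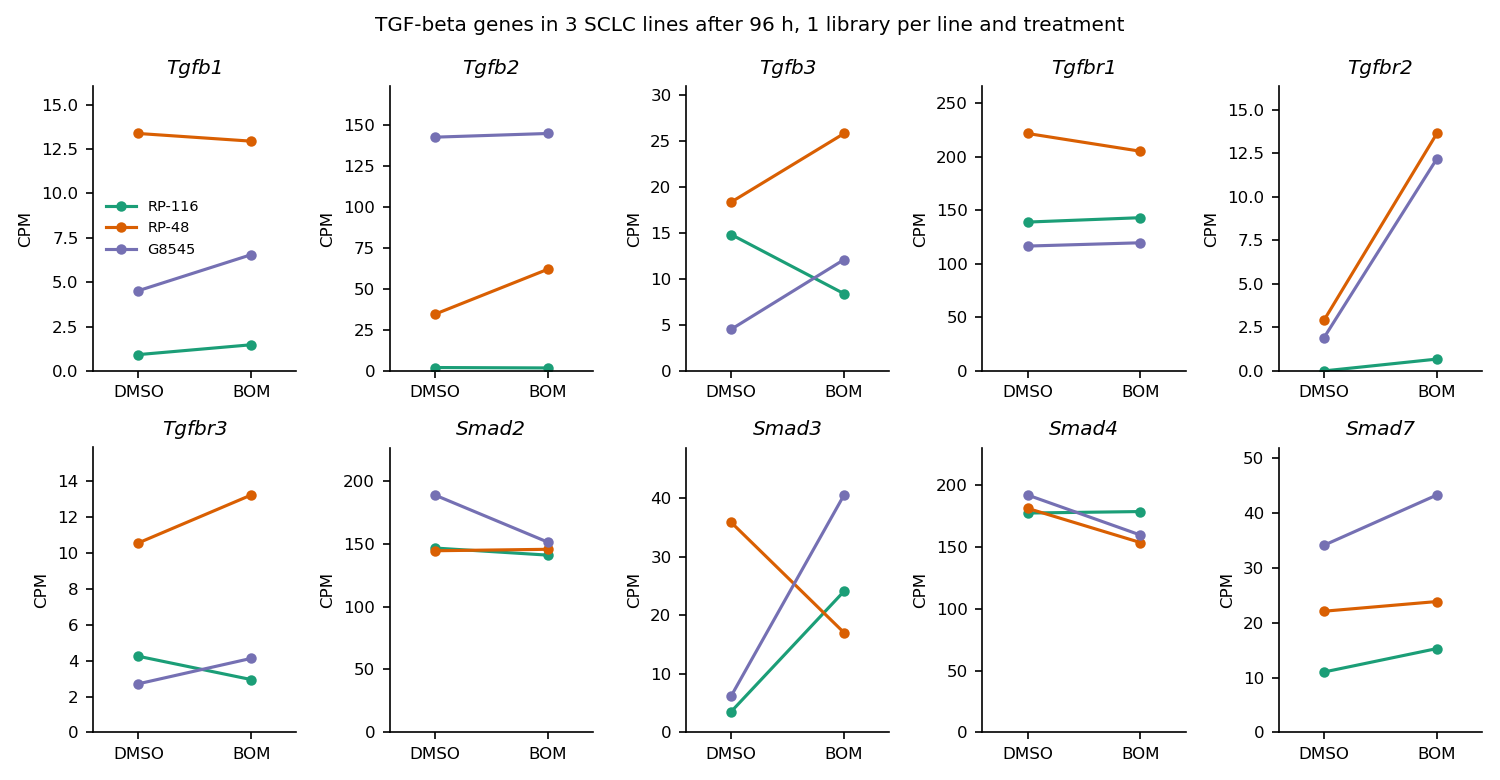
Each panel plots 1 gene in CPM (y axis from 0) in DMSO and BOM at 96 h, with a line joining the 2 libraries of each SCLC line. Tgfbr2 and Smad7 are higher with BOM in all 3 lines, and Smad3 is higher in RP-116 and G8545 but lower in RP-48; none of these differences was called.

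After 10 d in RP-48OVA-LLO190 culture, BOM was accompanied by large rises of the type II receptor Tgfbr2 and the ligand Tgfb2, with smaller rises of Smad3 and Smad7. These 4 of 10 genes were called higher and none was called lower, where 12.1% of all 15230 genes tested were called higher and 8.25% lower (20.3% in all). Of all calls 59.4% were higher, and 70.8% when libraries were scaled by their totals alone. Tgfbr2 was at 5.16, 5.57 and 5.94 CPM in the DMSO libraries and at 57.4 and 48.5 CPM in the BOM libraries. The groups were far apart, with a log2 fold change of 3.18 ± 0.17 (SE, n = 3 and 2, adjusted p = 5.8e-10, edgeR). Tgfb2 was at 46.6, 46.7 and 44.6 CPM in DMSO and at 238 and 209 CPM in BOM, again with no overlap (log2 fold change 2.21 ± 0.13, adjusted p = 2.4e-09, edgeR).

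Smad3 was at 10.7, 9.33 and 10.3 CPM in DMSO and at 29.5 and 26.4 CPM in BOM (log2 fold change 1.39 ± 0.27, SE, n = 3 and 2, adjusted p = 0.00104, edgeR). Every BOM library lay above every DMSO library, whereas in the line RP-48 at 96 h the BOM library was the lower one. The lines, times and RNA preparations of these experiments differ (polyadenylated RNA at 96 h, total RNA at 10 d), so the values stand side by side without a test. Smad7 was at 27.2, 37.8 and 47.8 CPM in DMSO and at 55.2 and 87.0 CPM in BOM (log2 fold change 0.86 ± 0.26, adjusted p = 0.0270, edgeR). Its groups did not overlap but spread widely, and the call was lost with DESeq2 (adjusted p = 0.140) and, by edgeR, without DMSO library 1 (0.0795), without DMSO library 2 (0.0657) or without BOM library 2 (0.406).

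The other 6 genes were not called. Tgfb3 was at 5.86, 10.3 and 7.12 CPM in DMSO and at 14.0 and 11.9 CPM in BOM (log2 fold change 0.67 ± 0.25, adjusted p = 0.0681, edgeR). Its groups did not overlap, and a fit that blocked on replicate number gave an adjusted p of 0.0462. By edgeR it was also called with scaling by library size alone (0.0429) and without the low-count filter (0.0385). With single libraries left out the adjusted p ran from 0.0191, without DMSO library 2, to 0.285. Tgfbr1 was at 96.5, 96.6 and 89.7 CPM in DMSO and at 120 and 108 CPM in BOM, a log2 difference of 0.21 with a 95% interval of 0.01 to 0.40 (adjusted p = 0.140, edgeR). Scaling by library size alone gave it an adjusted p of 0.0498 (edgeR). Smad2 and Smad4, which were among the most abundant, differed by -0.02 (interval -0.21 to 0.17) and -0.10 (-0.32 to 0.11) on the log2 scale. Counting the genes whose groups did not overlap gave 6 of 10, beside 48.2% of all genes with 3 against 2 libraries.

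The ligand mixture moved toward Tgfb2. Its part of the summed ligand CPM per kb was 66.9 to 70.3% in DMSO and 87.6 to 89.1% in BOM. Tgfb1 made up 7.82 to 14.5% in DMSO and 2.17 to 3.63% in BOM, although its own level overlapped between the groups (4.75 to 8.38 and 4.42 to 8.60 CPM). The share of Tgfb3 was 15.1 to 25.3% in DMSO and 8.69 to 8.79% in BOM. A single transcript, Gm26917, took 11.9 to 15.8% of counts in DMSO libraries and 8.36 to 9.85% in BOM libraries at 10 d, and its part in the results was not tested. Over the alternative settings and left-out libraries, none of which removed that transcript, the log2 fold changes of Tgfbr2, Tgfb2 and Smad3 lay within 3.10 to 3.28, 2.15 to 2.28 and 1.35 to 1.46.

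Summed fibroblast markers were also higher with BOM in these cultures, at 18.1 to 23.6 CPM in DMSO and 63.0 to 69.5 CPM in BOM over 10 genes, with Pdgfra the largest (9.33 to 13.0 and 25.0 to 26.3 CPM) and Col1a2 at 1.37 CPM or less in every DMSO and BOM library. Summed macrophage markers were at 6.70 to 13.8 and 10.4 to 12.6 CPM, and T cell markers at 2.51 to 3.73 and 1.46 to 2.13 CPM. The part of the fibroblast markers in the rises above was not tested.

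None of the 10 genes was called for interferon gamma, a T cell cytokine. In DMSO cells 0 of 10 were called (2.27% of all genes were called), in BOM cells 0 of 10 (2.06%), and 0 of 10 differed in response to BOM between cells with and without interferon (0% of genes for the interaction in edgeR, where 725 had an unadjusted p under 0.05, while DESeq2 called 13). Among the 10, no gene had an unadjusted p under 0.05 in any of these 3 comparisons. Tgfbr2 was at 6.88, 4.95 and 6.48 CPM in DMSO+IFNg, against the 5.16 to 5.94 CPM of DMSO alone. The interval for the interferon effect on Tgfbr2 in DMSO cells ran from -0.27 to 0.56 on the log2 scale, and that for Tgfb2 from -0.49 to 0.07.

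In the presence of interferon, BOM was accompanied by 6 genes called higher and none lower, beside 13.0% of all genes higher and 10.1% lower (23.1% in all). Groups of unscaled CPM did not overlap for 7 of 10, beside 47.3% of all genes. Smad2 was 1 of the 7, with a fitted log2 difference of only 0.0004 (unadjusted p = 0.996, edgeR). Tgfbr2 was at 69.4 and 58.0 CPM in BOM+IFNg, a log2 fold change of 3.31 ± 0.16 (SE, n = 2 and 3, adjusted p = 2.5e-10, edgeR), and Tgfb2 was at 186 and 204 CPM against 48.1, 30.5 and 39.8 CPM (2.24 ± 0.13, adjusted p = 2.4e-09, edgeR). Both were close to their values without interferon. Tgfbr3 was at 12.9, 9.58 and 7.58 CPM in DMSO+IFNg and at 19.8 and 19.5 CPM in BOM+IFNg, and was called (0.90 ± 0.22, adjusted p = 0.00653, edgeR). It had not been called without interferon (0.30 ± 0.23), but the difference between these responses was 0.60 ± 0.32 with an adjusted p of 0.999 (edgeR), so the responses were not shown to differ.

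The BOM+IFNg libraries disagreed for Smad3 and Smad7. Smad3 was at 8.37, 15.8 and 14.4 CPM in DMSO+IFNg and at 17.6 and 35.4 CPM in BOM+IFNg, and Smad7 was at 40.4, 44.9 and 48.7 CPM and at 52.0 and 106 CPM. In both genes library 2 of BOM+IFNg was far above library 1, which lay just above the highest DMSO+IFNg library. The calls (Smad3 1.01 ± 0.26, adjusted p = 0.00857, Smad7 0.78 ± 0.26, adjusted p = 0.0356, edgeR) were lost without BOM+IFNg library 2, with values of 0.37 (adjusted p = 0.425) and 0.14 (0.796). The Smad7 call was also lost with DESeq2 (adjusted p = 0.186). By edgeR it was lost without DMSO+IFNg library 1 (0.0739), 2 (0.0876) or 3 (0.0539). Tgfbr1 was called at a log2 fold change of 0.28 ± 0.09 (adjusted p = 0.0382, edgeR) and lost the call in 6 of 15 other settings.

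**Figure D2:**
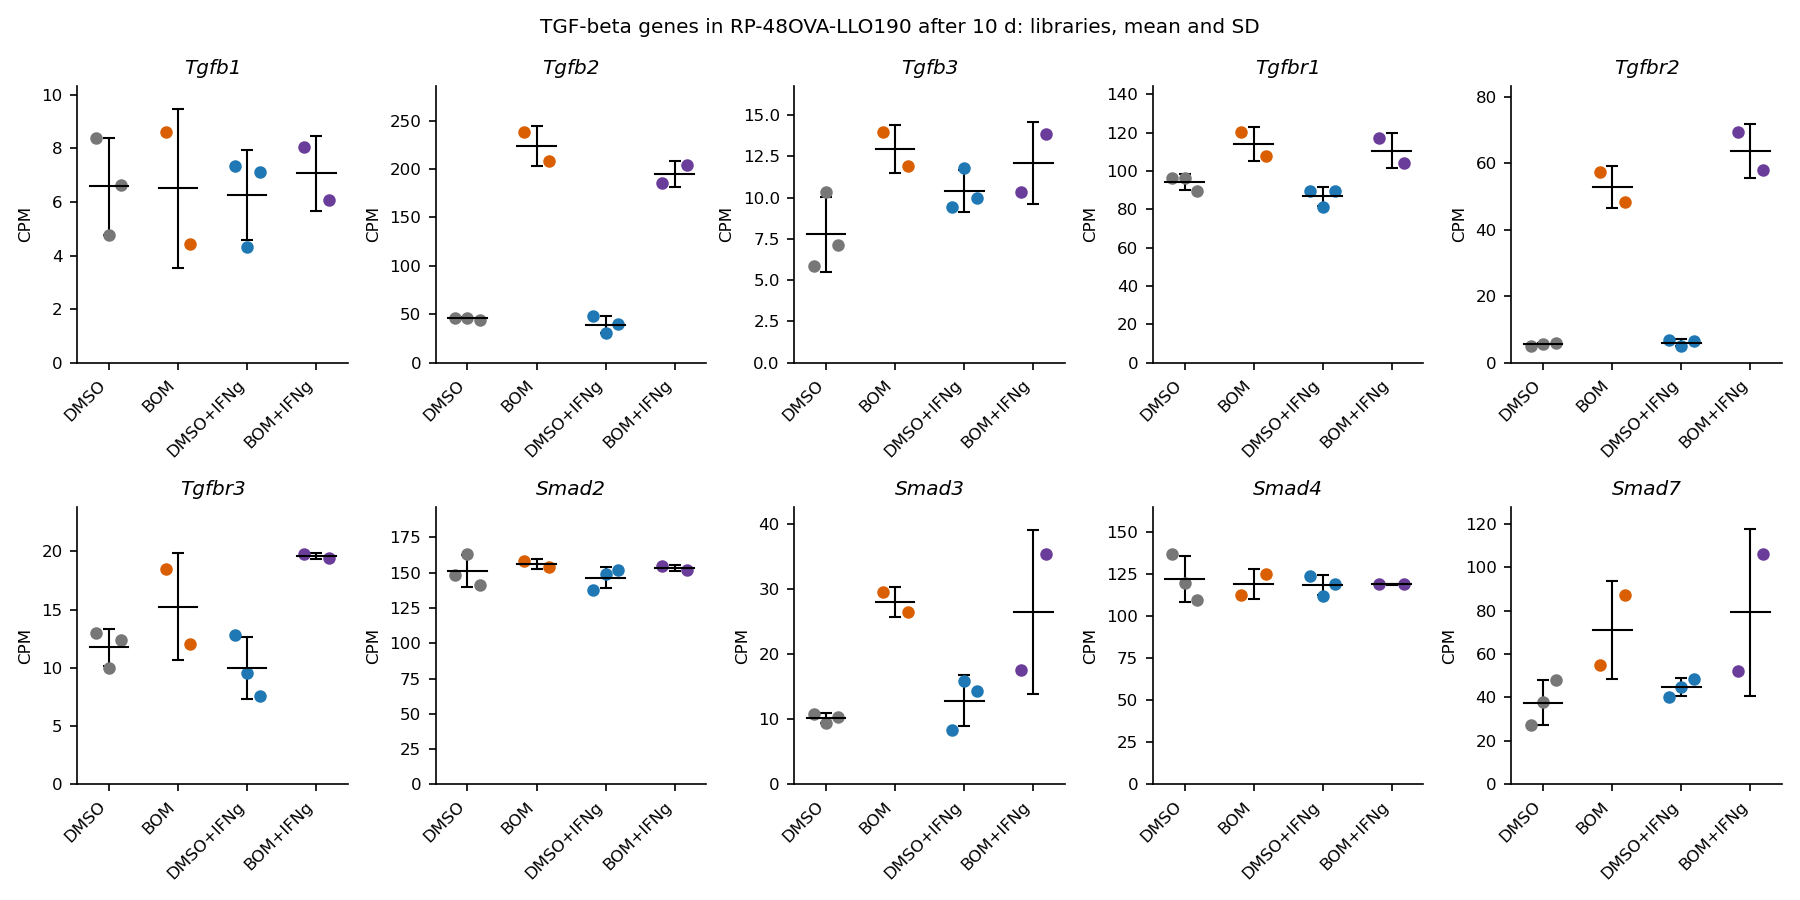
Each panel plots 1 gene in CPM (y axis from 0) in the 10 d cultures, with a point per library, the mean as a bar and the SD as whiskers for the 4 treatments. Tgfbr2 is at 4.95 to 6.88 CPM in all 6 DMSO libraries and at 48.5 to 69.4 CPM in all 4 BOM libraries, and Tgfb2 shows the same separation.

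In flank tumors BOM was accompanied by higher Smad3, Tgfb2 and Smad7, with 3 of 10 genes called higher and none lower (5.90% of all 14332 genes were called higher and 8.63% lower, 14.5% in all). Groups did not overlap for 5 of 10 (Tgfb2, Tgfbr1, Smad3, Smad4 and Smad7), beside 16.2% of all genes. Smad3 was at 36.8, 30.0, 15.1, 16.4 and 14.2 CPM in vehicle tumors 1 to 5 and at 53.3, 43.5, 55.7 and 56.2 CPM in the BOM tumors. All BOM tumors lay above all vehicle tumors, with vehicle tumors 1 and 2 between the groups. The log2 fold change was 1.15 ± 0.22 (SE, n = 4 and 5, adjusted p = 0.00292, edgeR), and 1.77 ± 0.12 without vehicle tumors 1 and 2 (adjusted p = 2.6e-08). In bulk tumor RNA, fewer cells of a type and less RNA per cell cannot be told apart.

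Tgfb2 was at 42.5, 39.4, 18.4, 16.2 and 19.2 CPM in vehicle tumors and at 57.1, 55.8, 49.7 and 49.3 CPM in BOM tumors. The groups did not overlap, and vehicle tumors 1 and 2 were again the highest of their group. The log2 fold change was 0.91 ± 0.24 (adjusted p = 0.0190, edgeR) with all tumors and 1.55 ± 0.17 without that pair (adjusted p = 4.8e-06), so that the pair moves the fold by more than 1.5 times. Without vehicle tumor 5 the adjusted p was 0.0534. Smad7 was at 18.2, 16.7, 13.5, 11.8 and 13.6 CPM in vehicle tumors and at 21.7, 18.9, 20.6 and 23.6 CPM in BOM tumors (0.49 ± 0.13, adjusted p = 0.0173, edgeR; 0.70 ± 0.13 without the pair). Its call was lost without BOM tumor 4 (adjusted p = 0.0580).

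The receptors Tgfbr3 and Tgfbr1 were called only without that pair, which held the highest vehicle values of both genes. Leaving it out raises these differences by its choice. Tgfbr3 was at 27.8, 26.2, 12.8, 13.8 and 10.7 CPM in vehicle tumors and at 28.5, 27.8, 26.8 and 25.8 CPM in BOM tumors. Vehicle tumors 1 and 2 lay within or beside the BOM range and the other 3 well below it, and the log2 difference of 0.53 ± 0.30 (adjusted p = 0.257, edgeR) became 1.12 ± 0.28 without them (adjusted p = 0.00756). Tgfbr1 was at 137, 136, 124, 113 and 106 CPM in vehicle tumors and at 150, 143, 150 and 141 CPM in BOM tumors, with a log2 difference of 0.23 ± 0.10 (adjusted p = 0.131, edgeR) and 0.35 ± 0.11 without the pair (adjusted p = 0.0260). Counted without vehicle tumors 1 and 2, 5 of 10 genes were called higher and none lower, while 11.7% of the 14450 genes then tested were called higher and 11.6% lower (23.3% in all).

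Tgfbr2, called higher in both culture comparisons at 10 d, was not called in tumors. It was at 44.9, 20.5, 15.4, 16.4 and 14.4 CPM in vehicle tumors and at 27.9, 44.8, 46.1 and 29.1 CPM in BOM tumors, where vehicle tumor 1 lay inside the BOM range. The log2 difference was 0.67 ± 0.43 (adjusted p = 0.334, edgeR) with a 95% interval of -0.24 to 1.57, and 1.25 ± 0.46 without the pair (adjusted p = 0.0588). Vehicle levels of this gene in tumors (14.4 to 44.9 CPM) were above the 5.16 to 5.94 CPM of DMSO cultures, but the tables were normalized separately and no test was made.

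With anti-PD1 as the background, 5 of 10 genes were called higher and 1 lower (15.8% of all genes were called higher and 16.6% lower, 32.4% in all). Groups did not overlap for 3 of 10, beside 23.9% of all genes. Smad3 was at 15.1, 15.1, 12.1, 13.5 and 11.3 CPM in anti-PD1 tumors and at 53.4, 48.0, 46.3 and 44.6 CPM in BOM+anti-PD1 tumors, a log2 fold change of 1.82 ± 0.23 (SE, n = 4 and 5, adjusted p = 5.7e-05, edgeR). Tgfb2 was at 18.1, 18.8, 22.7, 13.3 and 18.5 CPM and at 52.4, 68.9, 41.7 and 56.8 CPM (1.57 ± 0.25, adjusted p = 0.000246). Neither gene overlapped between the groups. Smad7 was at 14.3, 13.9, 12.5, 15.0 and 10.5 CPM and at 22.3, 20.1, 22.6 and 20.3 CPM, also without overlap (0.66 ± 0.13, adjusted p = 0.00107, edgeR).

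Tgfbr3 was at 18.6, 8.33, 11.4, 12.2 and 8.85 CPM in anti-PD1 tumors and at 36.5, 48.5, 17.8 and 35.6 CPM in BOM+anti-PD1 tumors (1.52 ± 0.31, adjusted p = 0.00122, edgeR). BOM+anti-PD1 tumor 3 lay just below the highest anti-PD1 tumor, and the other 3 were well above. Tgfbr1 was at 102, 142, 102, 106 and 106 CPM and at 156, 128, 131 and 148 CPM, with anti-PD1 tumor 2 inside the upper group (0.31 ± 0.10, adjusted p = 0.0216, edgeR, and 0.0912 without BOM+anti-PD1 tumor 1). Tgfbr2 was at 42.7, 13.0, 23.2, 9.60 and 5.12 CPM and at 36.9, 25.1, 34.4 and 26.4 CPM, and was not called (0.70 ± 0.45, adjusted p = 0.251, edgeR). Anti-PD1 tumor 1 was the highest of all 9, and without it the value was 1.27 ± 0.40 (adjusted p = 0.0225, edgeR). Leaving out the highest tumor of the lower group must raise the difference, so this p-value is descriptive only.

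Tgfb1, a ligand that many cell types make, was called lower. It was at 79.4, 73.3, 96.2, 78.9 and 64.7 CPM in anti-PD1 tumors and at 59.7, 47.5, 55.2 and 64.8 CPM in BOM+anti-PD1 tumors, and fell by 0.49 ± 0.12 on the log2 scale (adjusted p = 0.00515, edgeR). The groups touched at 64.7 and 64.8 CPM. Against vehicle (73.1, 68.7, 65.6, 72.2 and 92.8 CPM) the BOM tumors (61.1, 50.1, 66.9 and 60.1 CPM) had a log2 difference of -0.33 ± 0.12 that was not called (adjusted p = 0.0704, edgeR). For BOM+anti-PD1 against vehicle it was called at -0.40 ± 0.12 (adjusted p = 0.0431), but the call was lost in 12 of 24 other settings, among them the replicate block (0.0634), no filter (0.0581), and fits without vehicle tumors 3, 4 or 5 (0.0559, 0.0769 and 0.121). The ligand mixture differed as well. Tgfb1 made up 56.1 to 68.6% of the ligand CPM per kb in anti-PD1 tumors and 36.1 to 45.5% in BOM+anti-PD1 tumors, while Tgfb2 made up 10.1 to 14.3% and 26.1 to 45.7%. Tgfb1 went with the mean log2 CPM of the neuroendocrine markers over the 18 tumors (Pearson's r 0.728, Spearman's rho 0.767). Adjusted permutation p was 0.00467 and 0.0045 over 50 relations of the 10 genes with 5 marker lists. Pearson's r was 0.740 without vehicle tumors 1 and 2, and 0.717 without the 2 tumors farthest from the median marker level. With each group centred on its mean r was 0.217 (adjusted p = 0.600), and with macrophage and T cell markers the pooled r was -0.204 and -0.349. The part of these cells in the Tgfb1 values was not tested.

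Against vehicle, BOM+anti-PD1 tumors had 3 of 10 genes called higher (Smad3, Tgfb2 and Smad7) and Tgfb1 lower, beside 4.94% and 5.80% of all genes (10.7% in all). Groups did not overlap for 3 of 10 (Smad3 and Smad7 higher, Tgfb1 lower), beside 9.58% of all genes. Smad3 differed by 1.04 ± 0.22 (adjusted p = 0.00907, edgeR), and by 1.66 ± 0.12 without vehicle tumors 1 and 2. Without that pair Tgfbr3 was called as well (1.48 ± 0.28, adjusted p = 0.00102, edgeR), with 12.3% of all genes called higher and 10.4% lower (22.7% in all). Leaving out single tumors gave between 1 and 5 called genes, with only Smad3 left without vehicle tumor 3 or 5 and 2 genes without vehicle tumor 4, BOM+anti-PD1 tumor 1 or BOM+anti-PD1 tumor 2.

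Anti-PD1 alone against vehicle gave 0 called genes of 10, and 0 of 14332 genes (0%) by edgeR, where 1411 had an unadjusted p under 0.05, while DESeq2 called 86. Smad3, Tgfb2 and Tgfbr3 had negative differences with all tumors (-0.77 ± 0.22, -0.60 ± 0.24 and -0.64 ± 0.29), which were -0.17 ± 0.12, 0.03 ± 0.17 and -0.05 ± 0.28 without vehicle tumors 1 and 2. BOM+anti-PD1 against BOM likewise gave 0 of 10 (0.00698% of all genes, 1 gene called and 1109 at an unadjusted p under 0.05). The interaction of BOM and anti-PD1 gave 0 of 10 and 0% of genes, where 1258 had an unadjusted p under 0.05, while DESeq2 called 6. Its largest value among the 10 was that of Tgfbr3 (0.99 ± 0.43, adjusted p = 0.539, edgeR), so responses to BOM with and without anti-PD1 were not shown to differ. The comparisons of BOM, anti-PD1 and BOM+anti-PD1 with vehicle share the vehicle tumors, so their values are set side by side only.

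Smad4, Smad2 and Tgfb3 were not called by edgeR with the main settings in any tumor comparison. Smad4 was at 160, 152, 174, 158 and 154 CPM in vehicle tumors and at 187, 185, 179 and 177 CPM in BOM tumors, a log2 difference of 0.18 ± 0.06 (adjusted p = 0.0599, edgeR), and 0.16 ± 0.08 without vehicle tumors 1 and 2 (adjusted p = 0.140). DESeq2 called it with all tumors (adjusted p = 0.0289), and edgeR did with scaling by library size alone (0.0493). It was also called by edgeR without vehicle tumor 3 (0.0435), BOM+anti-PD1 tumor 3 (0.0483) or BOM+anti-PD1 tumor 4 (0.0266). With anti-PD1 the difference was 0.00 ± 0.06, and the interaction was -0.18 ± 0.09 (adjusted p = 0.574, edgeR), so the responses were not shown to differ. Smad2 lay between 96.7 and 120 CPM in all 18 tumors, and Tgfb3 between 16.0 and 31.9 CPM, and their groups overlapped in every comparison.

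**Figure D3:**
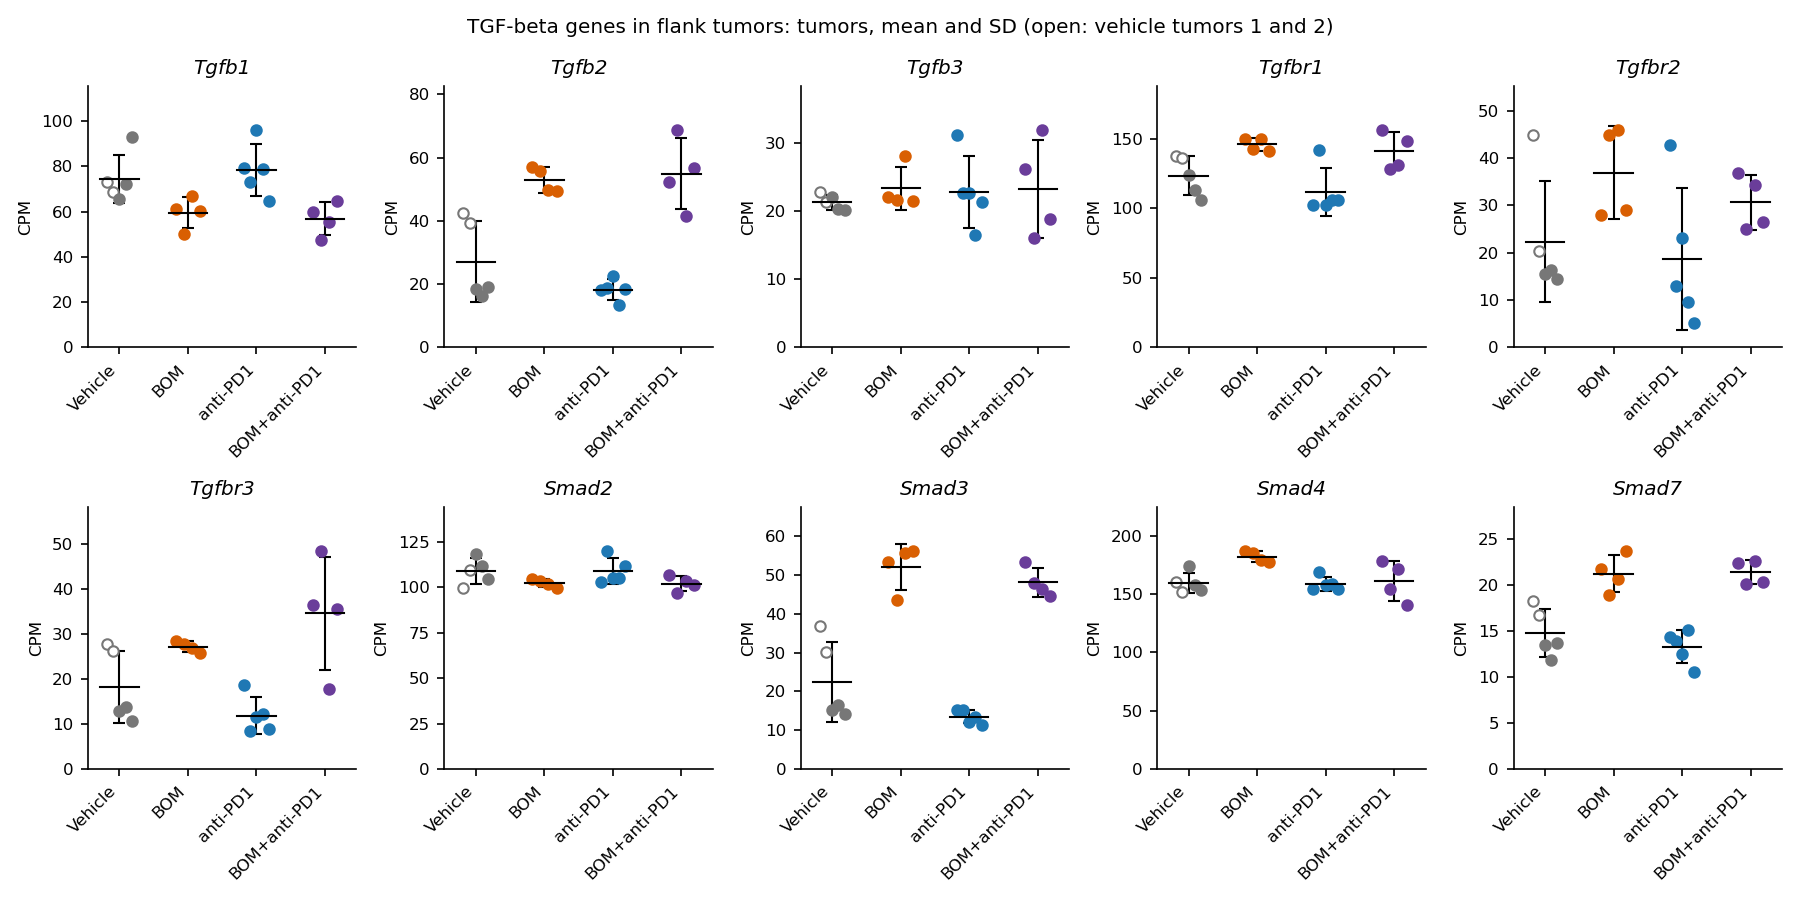
Each panel plots 1 gene in CPM (y axis from 0) in the flank tumors, with a point per tumor, the mean as a bar and the SD as whiskers, and vehicle tumors 1 and 2 as open points. Smad3 is at 43.5 to 56.2 CPM in the 8 BOM-treated tumors and at 11.3 to 36.8 CPM in the other 10, with the open points highest among these.

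Set side by side, Smad3 had fitted log2 differences between 1.01 and 1.82 in the 5 comparisons of BOM with its matched control, Tgfb2 between 0.33 and 2.24, and Tgfbr2 between 0.67 and 3.31. Smad7 was positive in all 5 (0.29 to 0.86). Smad2 and Smad4 stayed between -0.18 and 0.18.

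**Figure D4:**
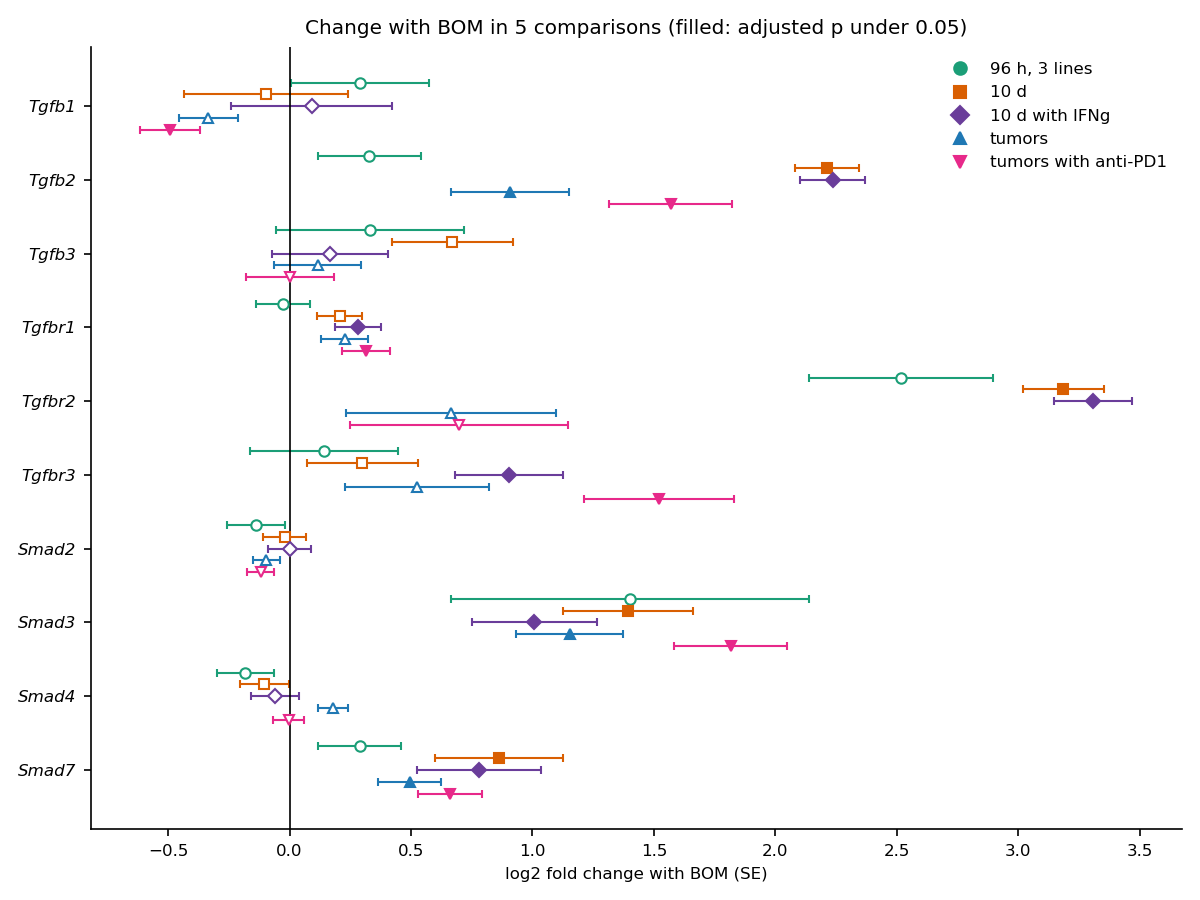
Log2 fold changes with BOM (x axis, points with SE) of the 10 genes (y axis) in 5 comparisons, filled where the adjusted p was under 0.05. Tgfbr2 is farthest right in culture (2.52 to 3.31) but not in tumors, and Tgfb1 is left of 0 in both tumor comparisons.

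Markers of other cells were set beside the tumor values, as summed CPM of each list. Correlations used the mean log2 CPM of the genes of a list instead. Tgfbr2 was high where macrophage markers were high. The 8 macrophage genes summed to 1284, 496, 544, 492 and 465 CPM in vehicle tumors 1 to 5, to 1008, 288, 608, 240 and 208 CPM in anti-PD1 tumors 1 to 5, to 426 to 1077 CPM in BOM tumors and to 509 to 1127 CPM in BOM+anti-PD1 tumors, with all 8 detected in every tumor. Vehicle tumor 1 and anti-PD1 tumor 1, the highest of their groups for Tgfbr2, were thus also highest for these markers. Over the 18 tumors Pearson's r of the log2 values was 0.912 and Spearman's rho 0.899 (permutation p = 1e-05 for each, the smallest that 100000 permutations can give, and adjusted p = 0.000167 and 0.000333 over 50 relations of the 10 genes with 5 marker lists). It was 0.910 with each group centred on its mean, 0.912 without vehicle tumors 1 and 2 and 0.887 without the 2 tumors farthest from the median marker level. Within the 8 BOM-treated tumors r was 0.656, and within 8 of the others (without vehicle tumors 1 and 2) it was 0.948.

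Tgfbr2 also went with fibroblast markers (r = 0.690, rho = 0.624, adjusted p = 0.00925 and 0.0310 by permutation), with r at 0.843 when each group was centred on its mean (adjusted p = 0.0005), 0.664 without vehicle tumors 1 and 2 (0.0256), and 0.532 without the 2 tumors farthest from the median marker level (0.137). Within the 8 BOM-treated tumors r was 0.790, and within the 8 others 0.932. The pooled relation therefore did not pass the threshold without the 2 farthest tumors, while the centred one did pass with all tumors. Tgfbr2 was not tied to these 2 lists alone. Pooled r was -0.645 with neuroendocrine markers (adjusted permutation p = 0.01735), 0.595 with T cell markers (0.0350) and 0.485 with endothelial markers (0.0925). With groups centred these were -0.323 (0.352), 0.569 (0.0813) and 0.730 (0.0125). In the cultures, where Tgfbr2 was called, the same 8 macrophage genes summed to 6.70 to 13.8 CPM in DMSO and 10.4 to 12.6 CPM in BOM at 10 d, with Cd68 the largest (4.19 to 9.17 and 5.19 to 7.31 CPM) and Adgre1 and C1qa at 0 in all 10 libraries. The lists share libraries and total counts with the gene, and the part of other cells in its tumor level was not tested. Smad3, Tgfb2, Tgfbr3 and Smad7 were called for BOM in tumors, so their pooled correlations mix treatment with marker level. With neuroendocrine markers r was -0.905, -0.800, -0.662 and -0.885 in that order (adjusted permutation p = 0.000167, 0.00225, 0.01735 and 0.000167). With groups centred it was -0.534, -0.157, -0.006 and -0.547 (adjusted p = 0.0908, 0.737, 0.981 and 0.0856). Tgfbr1 likewise passed pooled (r = -0.781, adjusted permutation p = 0.0034) but not centred (-0.433, 0.184). Smad4 passed with neuroendocrine markers both pooled (r = -0.628, adjusted permutation p = 0.0256) and centred (-0.672, 0.0223). Without the 2 tumors farthest from the median marker level its r was -0.569 (0.108). Smad3 with T cell markers passed when centred (r = 0.684, adjusted p = 0.01825). Of the 50 relations 19 passed pooled and 5 centred. Summed endothelial markers were at 162 to 243 CPM in BOM and 174 to 225 CPM in BOM+anti-PD1 tumors, and at 226 to 258 CPM in vehicle and 232 to 294 CPM in anti-PD1 tumors. The cultures had counts for this list too, at 8.74 to 206 CPM in DMSO and 19.6 to 142 CPM in BOM at 96 h. At 10 d the sums were 16.6 to 18.5 CPM in DMSO and 35.0 to 51.8 CPM in BOM. The list therefore does not mark host cells alone. The 5 genes listed as keratinocyte markers were carried by Dsp, a desmosome gene that the cultured SCLC lines also had (38.8 to 722 CPM), while Krt1 was at 0 in all 18 tumors and Krt5 and Krt14 were under 1 CPM. Dsp was at 537 to 610 CPM in BOM and 527 to 672 CPM in BOM+anti-PD1 tumors, and at 356 to 483 CPM in vehicle and 323 to 474 CPM in anti-PD1 tumors. The part of endothelial cells in the rises of Smad3 and Tgfb2 was not tested.

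**Figure D5:**
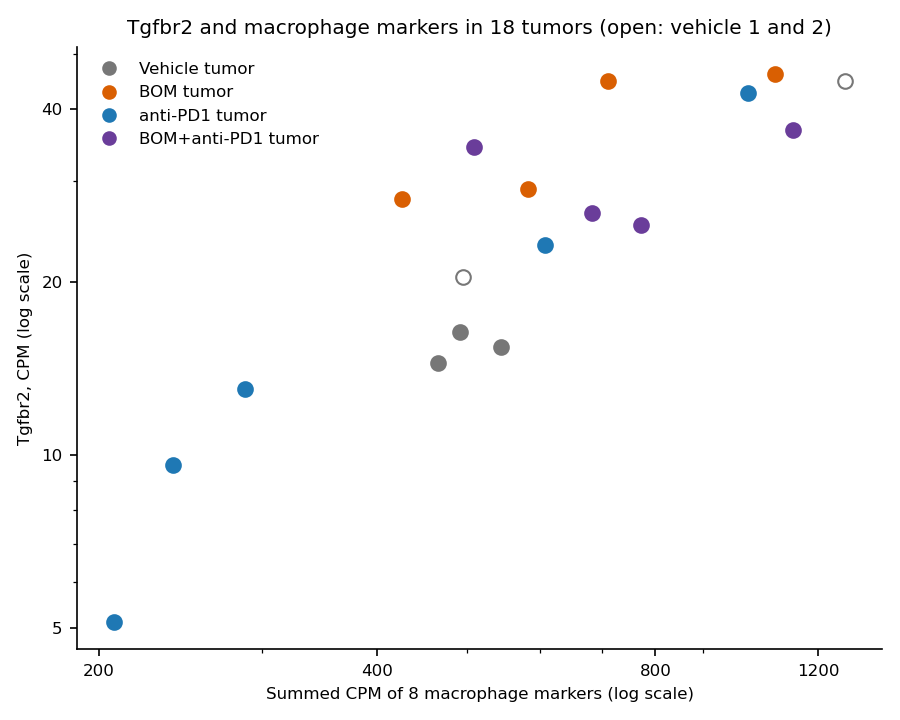
Tgfbr2 in CPM (y axis, log scale) against the summed CPM of 8 macrophage markers (x axis, log scale) in 18 tumors, colored by group, with vehicle tumors 1 and 2 as open points. Tgfbr2 runs from 5.12 CPM at 208 CPM of markers to 46.1 CPM at 1077 CPM of markers.

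The genes whose log2 CPM followed each member most closely were found over the 18 tumors and over the 10 libraries at 10 d, as a description. In tumors they were Tmem64, Dapk1 and Baiap2 for Smad3 (Pearson's r 0.990, 0.988 and 0.987), Asap3, Cpne2 and Wnt5b for Tgfb2 (0.984, 0.979 and 0.977) and Tcn2, Rxra and Itgb5 for Tgfbr2 (0.951, 0.948 and 0.942). At 10 d they were Spats2l, Itm2c and Atp1b1 for Tgfbr2 (0.997, 0.996 and 0.995) and Kcnk9, Stxbp6 and Fmo1 for Tgfb2 (0.997, 0.994 and 0.994). None of the 3 closest genes was shared between tumors and culture for either gene. The libraries share their treatment groups, which differ in many genes.

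Of 14 measured genes for proteins that hold TGF-beta latent or release it, at 10 d with BOM 6 were called higher and 0 lower, beside 12.1% and 8.25% of all genes. Their median log2 difference was 0.77, and -0.01 over all genes. Ltbp1, a latent TGF-beta binding protein, averaged 53.7 CPM in DMSO and 138 CPM in BOM (1.29 ± 0.12, adjusted p = 5.1e-07, edgeR). Thbs1, the activator thrombospondin 1, averaged 15.2 and 194 CPM (3.64 ± 0.43), Furin, which cleaves the ligand precursors, 35.6 and 63.5 CPM (0.77 ± 0.13), and the integrin subunit Itgav 32.6 and 58.0 CPM (0.76 ± 0.14). Interferon lowered Ltbp1 in DMSO cells (fell by 0.64 on the log2 scale, adjusted p = 0.00456, edgeR), the only gene of the pathway lists called for interferon. In tumors Ltbp3 (0.61 ± 0.15) and Ltbp4 (0.74 ± 0.21), both latent binding proteins, and the integrin subunits Itgb8 (0.83 ± 0.20) and Itgav (0.62 ± 0.18) were the 4 of 14 called higher against vehicle, none lower (5.90% and 8.63% of all genes). Without vehicle tumors 1 and 2 there were 5 higher and 0 lower (11.7% and 11.6% of all genes), with Ltbp3 at 0.92 ± 0.11, Ltbp4 at 1.24 ± 0.17, Itgb8 at 1.24 ± 0.18 and Itgav at 0.93 ± 0.15.

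Receptors and SMADs of the related BMP and activin branches changed in part. At 10 d, 5 of 12 were called higher and 1 lower (median 0.06), beside 12.1% and 8.25% of all genes. Bmpr1b, a type I BMP receptor, averaged 2.17 CPM in DMSO and 25.9 CPM in BOM (3.49 ± 0.26, adjusted p = 2.8e-08, edgeR), the inhibitory Smad6 4.53 and 23.2 CPM (2.31 ± 0.43), Smad9 38.4 and 78.2 CPM (0.96 ± 0.18) and Smad1 97.3 and 142 CPM (0.48 ± 0.10). In tumors Bmpr1b was the only 1 of 14 called against vehicle (6.69 and 21.0 CPM, 1.52 ± 0.44, adjusted p = 0.0280, edgeR; 3.03 ± 0.33 without vehicle tumors 1 and 2), beside 5.90% of all genes called higher. Without that pair 2 were called higher and 2 lower (11.7% and 11.6% of all genes). With anti-PD1 it averaged 1.87 and 23.9 CPM (3.67 ± 0.52), and 3 of 14 were called higher and 2 lower, near the 15.8% and 16.6% of all genes.

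Among ligands and secreted antagonists of those branches, 6 of 13 were called higher and 3 lower at 10 d, beside 12.1% and 8.25% of all genes. Bmp7 averaged 26.1 CPM in DMSO and 5.56 CPM in BOM (-2.29 ± 0.20, adjusted p = 1.9e-07, edgeR). Grem1, a secreted BMP antagonist, averaged 1.07 and 10.2 CPM (3.13 ± 0.37), Bmp2 2.94 and 10.3 CPM (1.74 ± 0.30) and the decoy receptor Bambi 12.3 and 31.4 CPM (1.30 ± 0.24). In tumors 2 of 16 were called higher and 2 lower against vehicle (5.90% and 8.63% of all genes), and 5 and 3 without vehicle tumors 1 and 2 (11.7% and 11.6%). Fst, the activin antagonist follistatin, averaged 17.6 CPM in vehicle and 65.0 CPM in BOM tumors (1.75 ± 0.53, adjusted p = 0.0348, edgeR; 3.91 ± 0.33 without vehicle tumors 1 and 2), and Bmp4 averaged 4.04 and 1.61 CPM (-1.29 ± 0.33, and -1.65 ± 0.32 without the pair).

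Of 17 measured genes commonly used as readouts of TGF-beta or BMP signaling, 9 were called higher at 10 d, 0 lower and 8 not called (median 0.82), beside 12.1% and 8.25% of all genes. Junb averaged 33.7 and 107 CPM (1.60 ± 0.17, adjusted p = 1.7e-06, edgeR), Snai2 1.16 and 9.54 CPM (2.97 ± 0.36), and Id1 and Id3, which are best known as BMP targets, 83.8 and 263 CPM (1.58 ± 0.20) and 31.6 and 118 CPM (1.85 ± 0.29). In tumors 3 of 20 were called higher and 2 lower against vehicle (5.90% and 8.63% of all genes), and again 3 and 2 without vehicle tumors 1 and 2 (11.7% and 11.6%). Id2 averaged 117 and 338 CPM (1.48 ± 0.39, and 2.80 ± 0.17 without the pair). Tsc22d1 averaged 132 and 211 CPM (0.66 ± 0.13, and 0.96 ± 0.09) and Bhlhe40 60.1 and 39.6 CPM (-0.61 ± 0.18, and -0.67 ± 0.21). At 96 h none of the 14 measured was called.

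Few intracellular regulators were called in culture. At 10 d, 1 of 19 was called higher and 1 lower, beside 12.1% and 8.25% of all genes: the ubiquitin ligase Nedd4l, which acts on receptors and SMADs, averaged 90.3 and 203 CPM (1.10 ± 0.09), and the kinase Hipk2 175 and 129 CPM (-0.50 ± 0.12). In tumors the SMAD corepressor Tgif1 (0.51 ± 0.12, and 0.71 ± 0.11 without vehicle tumors 1 and 2) and Zfyve9 (0.38 ± 0.11, and 0.49 ± 0.12), the anchor that presents SMADs to the receptor, were called higher against vehicle and none of 19 lower (5.90% and 8.63% of all genes). Without the pair 2 were higher and 1 lower (11.7% and 11.6%). With anti-PD1 2 of 19 were called higher and 7 lower, beside 15.8% and 16.6% of all genes, among them Fkbp1a, a protein that binds the type I receptor (-0.37 ± 0.06), and the corepressor Skil (-0.38 ± 0.09).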

How the data were processed

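RNA-seq was made with a kit that does not mark strand, per the labels, so reads of Tgfb2 and Tgfb3, which overlap other annotated genes, are uncertain. The submitters' processing notes list STAR 2.7, featureCounts, Subread 2.0, FastQC 0.11.9 and the build mm10. The authors deposited whole-number counts per gene in 3 tables (96 h, 10 d, tumors), with no normalization. The 10 genes and the pathway and marker lists were chosen with earlier results of these data known.

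Each table was tested with edgeR 4.0.16 in R 4.3.3 (quasi-likelihood test, low-count filter filterByExpr, TMM scaling, Benjamini-Hochberg adjustment over all genes tested, threshold 0.05). The 96 h fit had the line as a block, and the other fits held all 4 groups. CPM is a count per 1 M counts of the library, with no scaling factor, and CPM per kb divides by the table's gene length. Intervals are 95%. The named pathway genes are those with the smallest adjusted p in each list, and like genes are the 3 with the highest Pearson's r of log2 CPM (prior count 2). Depth limits low genes: 3 counts in RP-116 DMSO are 0.344 CPM. Simulated counts for the main BOM comparison of each table had 100 genes changed 2-fold and 100 changed 4-fold. The test found 81, 91 and 87 of the 2-fold genes at 96 h, 10 d and in tumors. It found all 100 of the 4-fold genes each time, with 2, 5 and 9 false calls. The changed genes had a mean above 4 CPM, and the spread of each gene was set by the trend over genes. The simulation held no differences between lines and no split of the vehicle tumors. It therefore does not measure recovery in the real libraries at 96 h, at 10 d or in tumors.

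Deviations of same-numbered DMSO and DMSO+IFNg libraries had correlations of 0.393, 0.119 and 0.133 over genes. Those of unlike-numbered libraries of these 2 groups ran from -0.277 to 0.177, so only the first pair stood out there. Same-numbered pairs that include a BOM group were all positive, from 0.058 to 0.230. Unlike-numbered pairs of that kind ran from -0.230 to 0.206. The replicate number was used as a block in an alternative. No 2 libraries agreed within sampling noise. Other alternatives were RLE or library-size scaling, DESeq2 1.42.0, no filter, each library left out, and vehicle tumors 1 and 2 left out.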

Additional observations from a re-analysis of the deposited data

Results flagged for a closer look

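In 40 sets of values (10 genes in the 4 tumor groups), 5 held a tumor whose gap to its nearest neighbour took up more of the group's range than Dixon's 95% limit allows. Chance flags about 1 in 20 such sets. Tgfb1 was at 92.8 CPM in vehicle tumor 5, with the next tumor at 73.1 CPM, and Tgfbr2 was at 44.9 CPM in vehicle tumor 1, with the next at 20.5 CPM. In anti-PD1 tumor 2, Tgfbr1 was at 142 CPM (next 106 CPM) and Smad4 at 169 CPM (next 158 CPM). Tgfb3 was at 28.1 CPM in BOM tumor 3, with the next at 22.1 CPM. The same vehicle tumor 1 held the highest sum of macrophage markers of its group (1284 CPM), and its part in the Tgfbr2 value was not tested. None of 20 interactions of the 10 genes (BOM with interferon and BOM with anti-PD1) was called.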

How the results depend on the processing

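Of 120 pairs of gene and comparison, 23 were called by edgeR with the settings of the report and 13 of these under every setting run. No pair called under any setting (32 in all) changed sign. The number of the 10 genes called at 96 h was 0, and 1 with DESeq2, 2 without the low-count filter and 0 to 1 with 1 line left out. For BOM with interferon it was 6, and 3 to 6 with single libraries left out, the lowest without BOM+IFNg library 2. For BOM against vehicle it was 3, 5 without vehicle tumors 1 and 2, and 2 to 4 with single tumors left out. For BOM+anti-PD1 against vehicle it was 4, and 1 to 5 with single tumors left out. The cause of these shifts was not tested. The replicate block called Tgfb3 at 10 d (0.67, adjusted p = 0.0462, edgeR) and lost Tgfb1 for BOM+anti-PD1 against vehicle (-0.39, adjusted p = 0.0634), and changed no other call of the 10 genes in the main effects. Over all genes, calls at 96 h numbered 0, 59 with DESeq2, 310 without the filter and 149 without G8545. For BOM against vehicle they numbered 2082, and 3363 without vehicle tumors 1 and 2, and for BOM+anti-PD1 against vehicle 1539 and 3284. For interferon they numbered 345 in DMSO and 314 in BOM cells, and 548 and 506 without the filter. The interaction at 10 d gave 0, and 13 with DESeq2, 67 without the filter and 10 with the replicate block. The interaction in tumors gave 0 and 6 with DESeq2, anti-PD1 against vehicle 0 and 86, and BOM+anti-PD1 against BOM 1 and 8. Scaling by library size alone at 10 d moved the share of calls that were higher with BOM from 59.4 to 70.8%, and with interferon from 56.3 to 68.1%. Levels under 1 CPM, as for Tgfbr2 in RP-116, rest on few counts.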
